A study of Dugesia japonica with 4 samples.

Results

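The left rim of a tissue section was defined as the spots left of the section's mean array column that had at least 1 of their 6 hexagonal neighbours off tissue. The left interior was the spots on the same side with tissue on all 6 neighbouring positions. A section was a connected group of 5 or more tissue spots. This gave 598 spots, 443 at the left rim and 155 in the left interior, of 1163 section spots and 1216 tissue spots in all. Positions alone chose these spots and no measured level was used. Of the other section spots, 555 lay right of the mean column and 10 on it, and 53 tissue spots lay off any section.

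The tissue was the head blastema of wild-type (WT) Dugesia japonica, a freshwater planarian, at a time labelled 5 dpa. Fresh-frozen sections 8 µm thick were profiled on Visium arrays, on which each spot captures polyadenylated RNA from a small patch of tissue and each captured molecule is counted once through its molecular identifier (UMI). Wells A, B, C and D form 1 group with no other genotype or treatment, so rim and interior were compared inside every well. The labels do not say whether the wells, or the sections within a well, came from different animals. The p-values therefore rest on how rim-to-interior differences vary between wells, which may be technical. In the tests of single genes that spread is largely pooled over genes. The labels also do not say which anatomical side lies at low array columns, nor which spots hold new blastema and which older tissue. A spot is not a cell and can hold several cells or parts of them.

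A planarian rebuilds a lost head from a blastema, a mass of new tissue that forms under the wound epidermis from the progeny of dividing stem cells called neoblasts. In a section of an intact planarian, an outer epidermis with body-wall muscle beneath it surrounds gut, nervous system and a mesenchyme that holds the neoblasts. A comparison of rim and interior spots therefore sets the outermost tissue of the section beside the tissue just inside it. The deposited features carry identifiers only, with the prefix DJKW or Maker, and nothing used here pairs them with gene names. For that reason no gene function is given below, the lists of cell type markers could not be applied, and the labelled tissue could not be checked against its markers.

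The 598 left spots held 6021585 of the 11838407 UMIs in the data set. The left rims of wells A, B, C and D had 669055, 989025, 1491431 and 1161690 UMIs over 78, 81, 142 and 142 spots. Their left interiors had 47497, 139632, 850079 and 673176 UMIs over 6, 12, 70 and 67 spots. Wells A and B thus hold few interior spots, and the values inside the section rest mainly on wells C and D. Each well had 12 sections, and 35 of the 48 sections had a left interior spot, 4 in well A, 7 in well B and 12 each in wells C and D. Sections without one add to the rim sums only, so in wells A and B the zones partly come from different sections. No refit kept only the sections with both zones. The limit that a count of 0 allows, used below, covers counting error only.

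**Figure D1:**
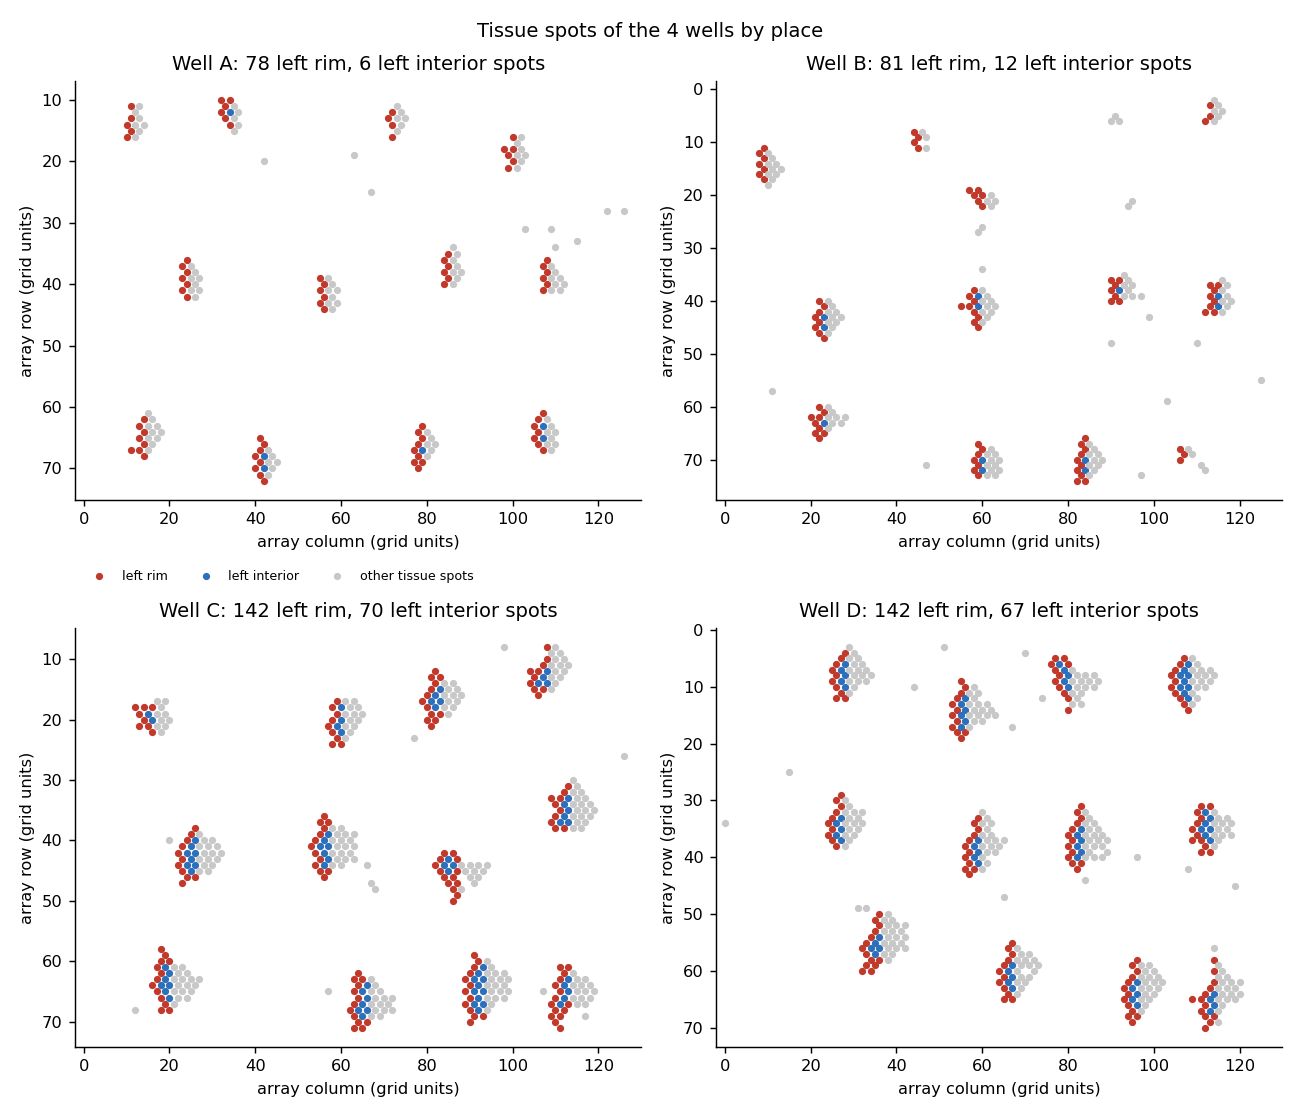
Tissue spots of the 4 wells at their array column (grid units, x axis) and array row (grid units, y axis). Red points are left rim spots, blue points left interior spots and grey points all other tissue spots. The left interior is 6 spots in well A and 12 in well B, against 70 in well C and 67 in well D.

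The UMIs of left rim and left interior spots did not differ beyond the spread between wells, and rim spots had somewhat more genes detected in each well. The median left rim spot of wells A, B, C and D held 8447, 11912, 9727.5 and 7529 UMIs, against 7678.5, 11871.5, 11398 and 8166 UMIs in the median left interior spot. The rim-to-interior ratio of these medians was 0.970 ± 0.106 (SD, n = 4 wells), above 1 in wells A and B and below 1 in wells C and D (exact two-sided sign-flip test, p = 0.75). The same ratio for genes detected per spot was 1.08 ± 0.0333 (SD, n = 4) and above 1 in 4 of 4 wells, with p = 0.125 in the exact sign-flip test, the smallest p that 4 wells allow. On the right side the rim spots were the shallower ones: the right rim-to-interior ratio was 0.593 ± 0.202 for UMIs and 0.838 ± 0.0991 for genes detected (SD, n = 4). The left ratio was the larger in 4 of 4 wells for both measures (exact sign-flip test of the difference, p = 0.125 for each). With every spot thinned to 4000 UMIs, which left out 57 rim and 11 interior spots on the left and 82 and 5 on the right, the ratio for genes was 1.10 ± 0.0623 on the left and 1.12 ± 0.0867 on the right (SD, n = 4). At equal depth, rim spots thus had more genes than interior spots in 4 of 4 wells on both sides (exact sign-flip test, p = 0.125 for each), and the sides no longer stood apart.

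The first question was which genes differ between the outermost left tissue and the tissue just inside it. UMIs were summed per well over the left rim and over the left interior and fitted with edgeR's quasi-likelihood test, with the well as a block and Benjamini-Hochberg adjustment over 8150 tested genes. At an adjusted p under 0.05, 1004 genes were higher at the left rim (12.3% of those tested) and 869 were higher in the left interior (10.7%). The median log2 fold of rim over interior was 1.63 for the rim genes and -1.22 for the interior genes, against 0.02 over all tested genes. Among the called genes, 354 rim genes differed at least 4-fold and 96 at least 8-fold, against 99 and 12 of the interior genes. More of the rim genes are scarce, as given below, and a scarce gene needs a larger fold to be called. Folds were not compared at matched level. In single wells, 798 of the 1004 rim genes were higher at the rim in 4 of 4 wells, and 351 of the 869 interior genes were higher inside in 4 of 4. Well A had no UMI in its 6 interior spots for 415 of the rim genes and for 346 of the interior genes. A count of 0 there puts any gene with rim UMIs in well A on the rim side and bars an interior gene from 4 of 4. The genes were also called on these same counts, and the shares over all tested genes were not counted, so the numbers of wells carry no test. In sums over spots, fewer cells of a type and less RNA per cell cannot be told apart.

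The fit borrowed heavily across genes, with 490.0 prior degrees of freedom against 3 residual ones, so the p-values of single genes lean on the spread pooled over all genes. DESeq2 called 467 rim and 490 interior genes, and edgeR without the well as a block, where 6936 genes passed the filter, called 262 and 69. Without well C the counts were 523 and 496, and without well D 504 and 487, while scaling by library totals moved the share of rim genes among the calls to 72.1%, against 53.6% with TMM factors, and shifted the median over all genes to 0.29 on the log2 scale.

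The genes higher at the left rim took 12.8% ± 2.50 of left rim UMIs, against 5.38% ± 3.51 of left interior UMIs (SD, n = 4 wells). By well the shares were 16.1% at the rim against 10.7% inside in well A, 10.6% against 3.78% in well B, 11.2% against 3.51% in well C, and 13.5% against 3.59% in well D. The genes higher inside took 12.6% ± 5.36 of left rim UMIs, against 27.0% ± 13.4 of left interior UMIs. By well these were 4.88% at the rim against 7.20% inside in well A, 12.9% against 30.5% in well B, 16.4% against 34.9% in well C, and 16.1% against 35.5% in well D. Well A stood apart in both sums, with the smallest gap between rim and interior. It has 6 interior spots. At its rim, of 78 spots, the rim genes took the largest share of any well (16.1%) and the interior genes the smallest (4.88%). What sets well A apart was not tested. These shares describe genes that were chosen on the same counts and carry no test.

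Scarce genes and abundant genes divided differently between the zones. Among the 2482 tested genes with a mean under 20 CPM (UMIs of a gene scaled to a common total, here with TMM factors), 393 were higher at the left rim (15.8%) and 155 in the left interior (6.25%). Among the 178 genes with a mean of 1000 CPM or more, 10 were higher at the rim (5.62%) and 41 inside (23.0%). The classes between them lay between these shares, with 423 rim and 410 interior genes of 4142 at 20 to 100 CPM, and 178 and 263 of 1348 at 100 to 1000 CPM. Of the 135 tested features with a Maker identifier, 27 were higher at the rim (20%) and 12 inside (8.89%), and of the 8015 with a DJKW identifier 977 (12.2%) and 857 (10.7%). With the deeper sum of each well thinned to the depth of the shallower one, fewer genes passed the filter. The counts were then 116 rim and 36 interior genes of 562 under 20 CPM, and 12 and 53 of 178 at 1000 CPM or more. The filter can keep a scarce gene on the few sums in which it is high, before and after thinning. The shares called among scarce genes therefore depend on the filter too, by an amount that was not tested.

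The genes higher at the left rim are led by DJKW.28094 and Maker00011714, those with the largest folds among the 242 rim genes that averaged at least 50 CPM and ran one way in 4 of 4 wells. DJKW.28094 had 37.4, 138.9, 124.7 and 147.8 CPM at the left rim of wells A, B, C and D, against 0, 0, 4.40 and 5.96 CPM in their left interiors. These levels stand for 28, 149, 183 and 165 UMIs at the rim, against 0, 0, 3 and 3 UMIs inside. The rim and interior values did not overlap, although the 3 UMIs that a count of 0 allows would be 46.9 CPM in the small interior of well A and 22.8 CPM in that of well B. The log2 fold was 4.86 ± 0.38 (SE; edgeR adjusted p = 2.58e-30), and DJKW.28094 was higher at the rim in 32 of the 35 sections with both zones. Over the alternative settings its adjusted p ran between 1.48e-36 and 0.00823.

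Maker00011714 had 108.1, 64.3, 74.9 and 158.5 CPM at the left rim of wells A to D, against 0, 7.61, 4.40 and 5.96 CPM in the left interior. Its UMIs were 81, 69, 110 and 177 at the rim, against 0, 1, 3 and 3 inside. All interior values lay below all rim values, and the rim was the higher zone in 34 of 35 sections. The log2 fold was 4.33 ± 0.38 (SE; edgeR adjusted p = 4.50e-25, at most 0.00433 over the alternative settings). Averaged over spots as log2(scaled UMIs + 1) and fitted with limma, the differences were 0.38 for DJKW.28094 and 0.70 for Maker00011714, far smaller than the folds of the sums. Where a spot holds few UMIs of a gene, the added 1 shrinks such a difference. The sizes of these differences and of the folds are therefore not on the same scale.

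The genes higher in the left interior are led by DJKW.24046 and DJKW.5504 by the same rule, which 244 interior genes passed. DJKW.24046 had 1.34, 14.9, 160.8 and 266.0 CPM at the left rim of wells A to D, against 125.0, 98.95, 847.8 and 1969 CPM in the left interior. The interior was the higher zone within each well, but the levels of different wells overlapped: the rims of wells C and D exceeded the interiors of wells A and B. The counts behind wells A and B are small, 1 and 16 UMIs at the rim against 8 and 13 inside, while wells C and D had 236 and 297 UMIs at the rim against 578 and 992 inside. The log2 fold was -2.77 ± 0.21 (SE; edgeR adjusted p = 2.04e-31), and the interior was higher in 29 of 35 sections. With spots next to the mean column left out, which leaves wells C and D only, the log2 fold was -1.72, against -2.60 in wells C and D with those spots kept.

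DJKW.5504 had 1.34, 27.0, 77.7 and 66.3 CPM at the left rim of wells A to D, against 15.6, 76.1, 413.6 and 750.4 CPM in the left interior. Well A contributes 1 UMI at the rim and 1 inside, and the other wells have 29, 114 and 74 UMIs at the rim against 10, 282 and 378 inside. The log2 fold was -2.75 ± 0.22 (SE; edgeR adjusted p = 1.56e-29), with the interior higher in 27 of 35 sections. Without the well as a block neither interior gene was called, with edgeR adjusted p = 0.268 for DJKW.24046 and 0.14 for DJKW.5504, the highest over the alternative settings, while the log2 folds were -2.79 and -2.92. Both rim genes were called without the block.

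**Figure D2:**
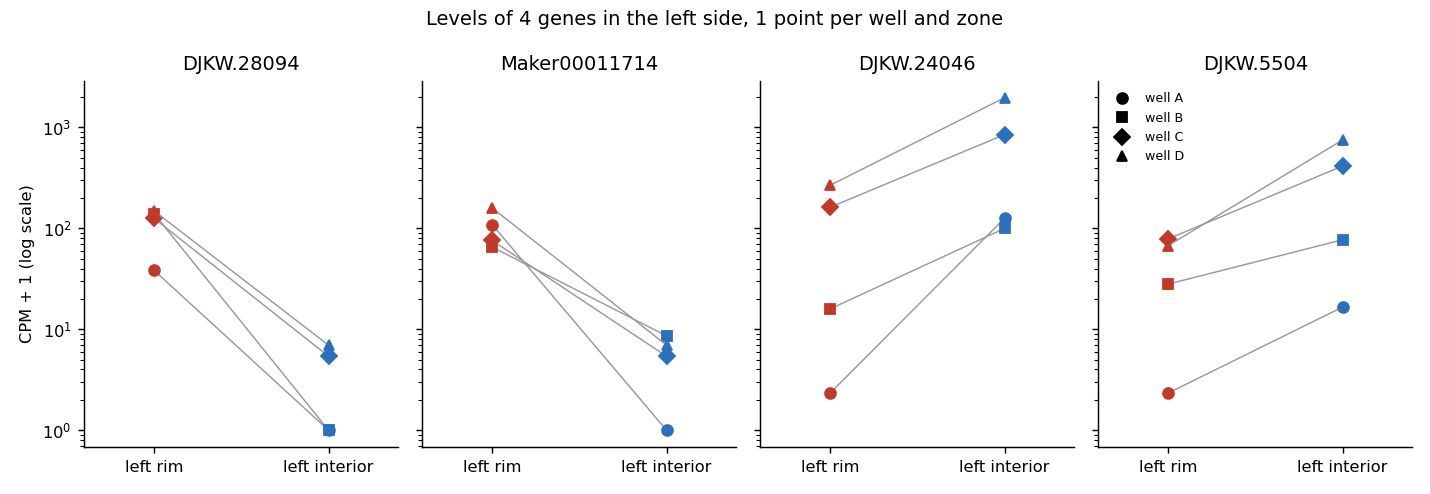
Levels of 4 genes (CPM + 1, log scale, y axis) at the left rim (red) and in the left interior (blue), with 1 symbol per well and a line joining the zones of a well. DJKW.28094 and Maker00011714 lie between 37.4 and 158.5 CPM at the rim and at 7.61 CPM or less inside. DJKW.24046 and DJKW.5504 are higher inside in every well, and in both zones the levels of wells A and B lie below those of wells C and D.

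The spread between wells was larger for the interior genes in the left interior than for the rim genes at the left rim. The zones differ in spots and UMIs, and the gene sets were not compared in the same zone. For the 244 interior genes that met the naming rule, the level in the left interior differed by a median factor of 4.35 between the lowest and the highest well, and well A was the lowest well for 216 of them and well D the highest for 137. Over all 2999 tested genes of at least 50 CPM that factor was 2.44, with well A lowest in the left interior for 1710 and well D highest for 1010. For the 242 rim genes the factor at the left rim was 2.20, and well A was the highest well for 134 and well D for 79. Over the 2999 genes it was 1.58 at the left rim, with well A highest for 983 and lowest for 1380, and well D highest for 720. The rim-to-interior log2 ratios of single wells over these 2999 genes correlated at r = 0.896 between wells C and D, at 0.702 between B and C and at 0.681 between B and D. The r between well A and each other well lay between 0.26 and 0.275. Such r describe genes, which do not count as replicates, and well A has the fewest interior UMIs. Leaving out wells A and B, a choice made after their spot numbers were seen, left 1126 rim and 1021 interior genes called.

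Most of the rim genes were higher along the middle of the rim too, and a few had much smaller folds there. Spots in the middle 50% of a section's range of rows were set apart from those in the outer rows at its top and bottom ends, and the comparison was refitted on the middle rows alone. There 678 genes were higher at the rim and 683 inside among 6995 tested. Of the 854 rim genes that could be tested in the middle rows, 635 were called again (74.4%), 13 had the opposite sign, and 28 had folds smaller by at least 1 on the log2 scale. Of the 794 interior genes tested there, 659 were called again (83.0%) and 1 had the opposite sign. The middle rows are part of the spots on which these genes were first called, so the repeated calls are not a second observation.

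Levels along the rim differed between the named genes, of which DJKW.3481 and DJKW.26548 were named for the difference between the sides described further on. Levels along the rim are given as plain CPM, scaled by the total of the spots concerned without TMM factors. DJKW.3481 had 108.3, 92.2, 198.7 and 158.3 plain CPM in the middle rows of the left rim of wells A to D, against 2469, 1918, 3341 and 3175 in the outer rows. DJKW.26548 had 27.9, 56.1, 53.3 and 41.2 plain CPM in the middle rows, against 1625, 1261, 2005 and 2114 in the outer rows. Both genes were high at both ends of the rim and low between them in 4 of 4 wells. Maker00011714 showed no dip of that size, with 130, 60.1, 92.1 and 208.1 plain CPM in the middle rows and 112.7, 79.6, 60.8 and 115.6 in the outer rows. In well C its lowest rows stood at 24.1 plain CPM, against 92.1 in the middle rows and 93.8 in the highest rows.

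The rim-to-interior fold of these genes followed the same division. In all rows DJKW.3481 had 1187, 919.3, 2070 and 2057 CPM at the left rim, against 156.2, 60.9, 239.1 and 240.2 CPM in the left interior. Its log2 fold was 3.18 ± 0.19 (SE; edgeR adjusted p = 1.16e-44), and the rim was higher in 35 of 35 sections. In the middle rows alone its log2 fold was -0.20 ± 0.21 (edgeR adjusted p = 0.631). DJKW.26548 had a log2 fold of 4.04 ± 0.22 in all rows (edgeR adjusted p = 2.59e-53, rim higher in 32 of 35 sections) and of -0.35 ± 0.30 in the middle rows (adjusted p = 0.519). Maker00011714 and DJKW.28094 had folds of 5.09 and 3.10 on the log2 scale in the middle rows (edgeR adjusted p = 2.11e-08 and 1.32e-04), so this pair was called higher at the rim in the middle rows and the other pair was not. DJKW.28094 was intermediate, with 27.9, 48.1, 53.3 and 23.9 plain CPM in the middle rows and 54.9, 255.1, 171.9 and 219.9 in the outer rows. In well A only its lowest rows were above the middle rows, at 106.3 plain CPM, and its highest rows stood at 19.5 on 4 UMIs.

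**Figure D3:**
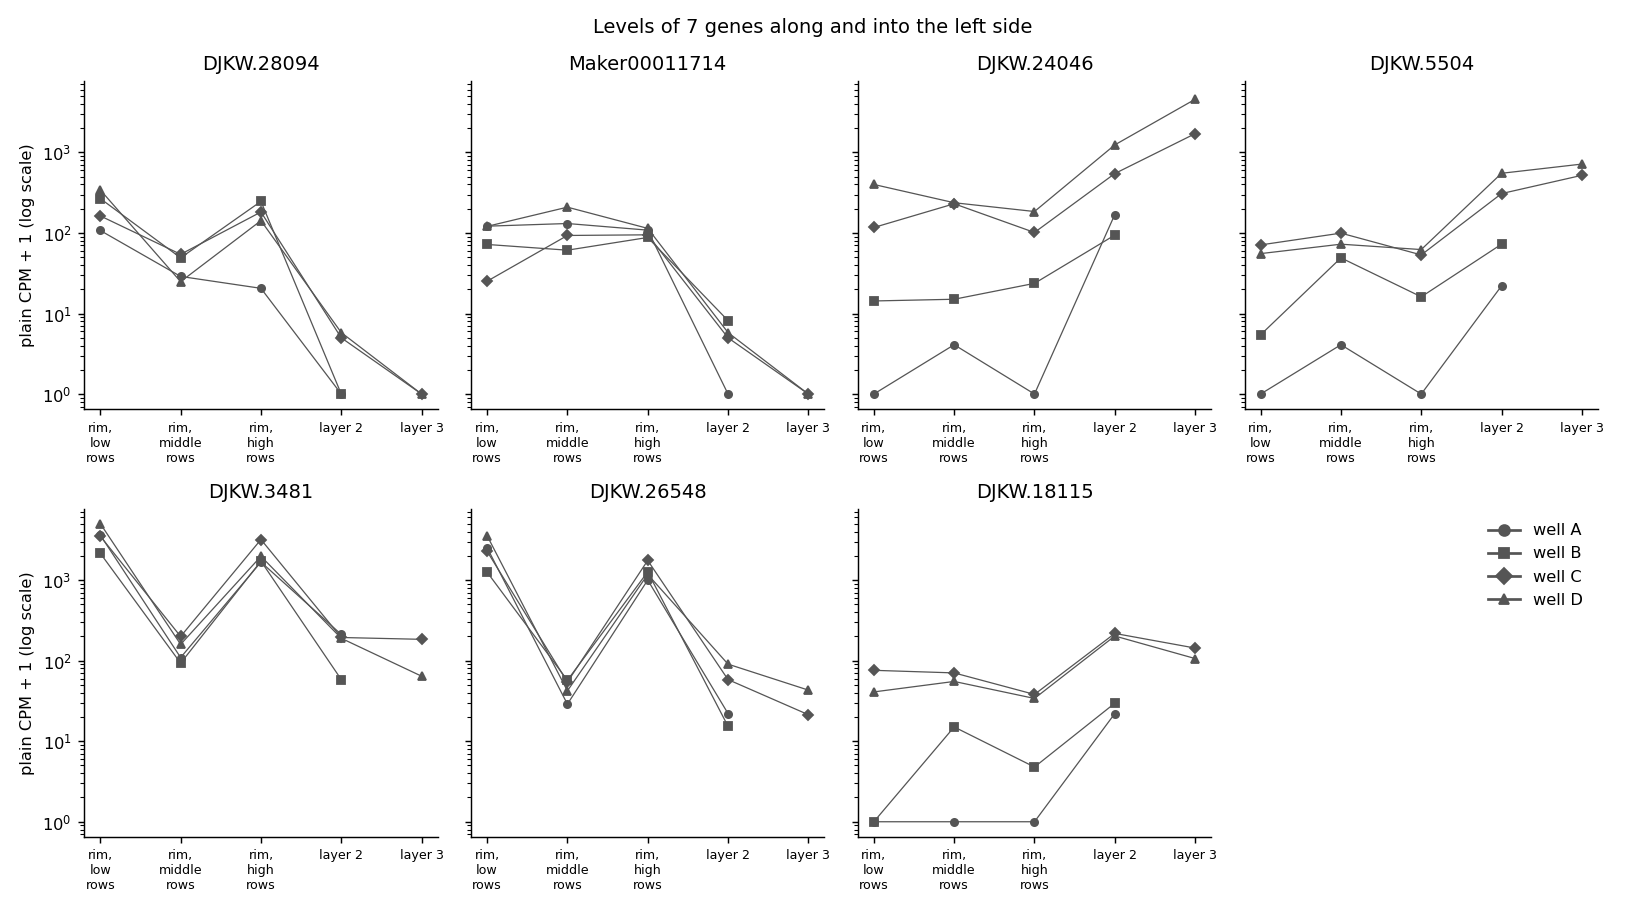
Levels of 7 genes (plain CPM + 1, log scale, y axis) in the low, middle and high rows of the left rim and in layers 2 and 3 of spots inwards from it, with 1 symbol per well. Layer 3 has 6 spots in well C and 3 in well D and none in wells A and B. DJKW.3481 and DJKW.26548 dip in the middle rows of the rim in every well, and DJKW.24046 is highest in layer 3 of wells C and D.

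Levels inside the left interior could be followed 1 layer deeper in wells C and D only. With the rim as layer 1, layer 2 (interior spots that touch the rim) held 6, 12, 64 and 64 spots in wells A to D, and layer 3 held 6 in well C and 3 in well D. DJKW.24046 had 545 plain CPM in layer 2 and 1708 in layer 3 of well C, and 1239 and 4567 in those of well D. DJKW.18115 ran the other way, with 216.8 and 142.4 in well C and 201.4 and 105.2 in well D. These are values of few spots in a pair of wells, and no test was made between the layers.

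Across the whole width of the sections, divided into 5 equal bands from left to right, Maker00011714 was high at both borders. It had 223.2, 117.6, 139.6 and 233.5 plain CPM in the leftmost band of wells A to D and 107.9, 73.5, 33.6 and 152.7 in the rightmost band. In the middle band it had 34.4, 23.4, 19.3 and 16.5. DJKW.26548 was far higher at the left border than at the right, with 1196, 498.3, 443.0 and 822.5 plain CPM in the leftmost band and 34.5, 20.4, 42.9 and 66.4 in the rightmost. Its second band from the left had 446.3, 716.2, 1143 and 818.5, above the leftmost band in wells B and C. In the middle band it had 555.9, 312.9, 312.7 and 268.4. For DJKW.26548 the lowest well of the leftmost band lay above the highest well of the rightmost band, while for Maker00011714 these bands overlapped. DJKW.24046 had 0, 8.55, 118.8 and 202.9 plain CPM in the leftmost band and 12.9, 134.7, 1009 and 876.2 in the rightmost, higher on the right in each well. Each band takes in rim and interior spots together, and no test was made between bands.

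The second question was whether the difference between rim and interior is the same on the right side of the same sections. The right side had 379 rim and 176 interior spots, and edgeR fitted on it alone called 654 genes higher at the right rim (8.78% of 7445 tested) and 962 higher in the right interior (12.9%). Over the 7227 genes tested on both sides the left and right log2 folds correlated at r = 0.776, a value across genes of spots from the same sections and wells. The 403 genes called at the rim on both sides were 50.1% of the 805 left rim genes and 63.0% of the 640 right rim genes. The 691 genes called inside on both sides were 80.5% of the 858 left interior genes and 73.9% of the 935 right interior genes. No gene called on the left was called in the opposite direction on the right.

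Being called on the left and not on the right did not by itself mark a difference between the sides. Of the 402 left rim genes that were not called on the right, 351 had the same sign there, and the median log2 fold of all 805 left rim genes was 1.43 on the left and 0.99 on the right. For the 858 left interior genes the medians were -1.21 on the left and -1.04 on the right. The difference itself was tested in edgeR as the product of zone and side, with well and side joined as a block, over 8640 genes. It was more positive on the left for 9 genes (0.104% of those tested) and more negative on the left for 23 (0.266%), and 638 genes had an unadjusted p under 0.05. DESeq2 called 2 and 1 genes, and edgeR without a block called 0 and 0, with 181 genes at an unadjusted p under 0.05.

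**Figure D4:**
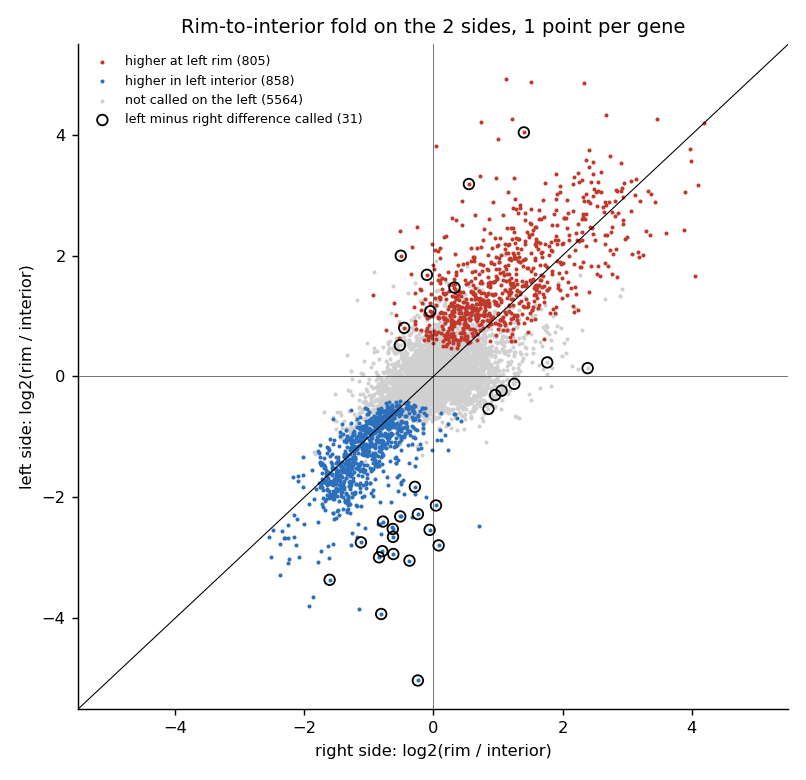
Log2 fold of rim over interior on the left side (y axis) against the right side (x axis) for the 7227 genes tested on both, 1 point per gene. Genes with a fold beyond the limits of the axes are counted here but not drawn. Red points were called higher at the left rim (805) and blue points higher in the left interior (858). Circles mark those genes, 31 of the 7227, whose left minus right difference was called. The diagonal marks equal folds on the 2 sides, and no red point was called inside on the right.

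All 9 genes with a more positive left difference were highest at the left rim of the 4 places (left rim, left interior, right rim and right interior). Their left ratio was the higher in 4 of 4 wells. The genes were called on these same sums, and the shares over all tested genes were not counted. The numbers of genes by place and of wells therefore carry no test. DJKW.3481 averaged 1452 ± 547 CPM at the left rim and 154 ± 74.2 CPM in the left interior, and 249.7 ± 136 CPM at the right rim and 157 ± 98.2 CPM in the right interior (SD, n = 4 wells, scaled over the 16 sums). The left rim stood above the other 3 places in every well, and the levels of those 3 overlapped between wells. Within each well the right rim was above both interiors, and the fit of the right side gave it a log2 fold of 0.55 (edgeR adjusted p = 0.0932). Its left minus right difference was 2.65 ± 0.30 on the log2 scale (SE; edgeR adjusted p = 5.92e-06).

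DJKW.26548 averaged 914 ± 329 CPM at the left rim and 46.7 ± 41.5 CPM in the left interior, and 134 ± 65.2 CPM at the right rim and 42.5 ± 30.1 CPM in the right interior. Its right rim was also above its right interior in the fit of that side (log2 fold 1.401, edgeR adjusted p = 1.05e-03). The left minus right difference was 2.65 ± 0.37 (SE; edgeR adjusted p = 2.34e-04). In the middle rows alone neither difference was called: it was 0.28 for DJKW.3481 (edgeR adjusted p = 0.843) and -0.02 for DJKW.26548 (adjusted p = 0.996), and over the alternatives the adjusted p of both ran up to 1, without a block. Of the 9 genes, 6 were still called in the middle rows.

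The 23 genes with a more negative left difference were more mixed. The left interior was the highest of the 4 places for 15 of them and the left rim the lowest for 18. For 6 of the 23 the left ratio was the lower in 4 of 4 wells. These counts too describe genes called on the same sums and carry no test. In the middle rows alone, 10 of the 23 were still called. DJKW.18115 averaged 26.4 ± 27.4 CPM at the left rim and 124.9 ± 120 CPM in the left interior, and 67.1 ± 75.6 CPM at the right rim and 77.7 ± 88.2 CPM in the right interior (SD, n = 4). Its levels were 0 and 13.95 CPM at the rim and in the interior on the left of well A, 6.85 and 27.7 in well B, 56.8 and 232.0 in well C and 42.1 and 226.1 in well D, so wells A and B lay far below wells C and D in both zones. The left minus right difference was -2.01 ± 0.29 (SE; edgeR adjusted p = 4.43e-04).

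DJKW.5504 averaged 39.9 ± 32.6 CPM at the left rim and 276 ± 296 CPM in the left interior, and 154 ± 127 CPM at the right rim and 320.2 ± 239 CPM in the right interior. The left rim was thus the place that stood lowest, and the interiors of both sides overlapped. The left minus right difference was -1.60 ± 0.30 (SE; edgeR adjusted p = 9.48e-03). With 1 CPM added it was -0.01 in well B, in well A it rests on 1 UMI in each left zone and none on the right, and without well D it was -0.96 with an edgeR adjusted p of 0.799. Without well D edgeR called 0 genes with a more negative left difference, with 395 genes of either direction at an unadjusted p under 0.05. Without well C the count was 12, with DJKW.18115 and DJKW.5504 both at an edgeR adjusted p of 0.0903 and log2 differences of -2.04 and -1.75. Without well D DJKW.18115 was at an edgeR adjusted p of 0.0745 and a difference of -2.05. Over the alternatives their adjusted p ran from 7.36e-06 for DJKW.18115 and 0.000104 for DJKW.5504 up to 1 for both, without a block.

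**Figure D5:**
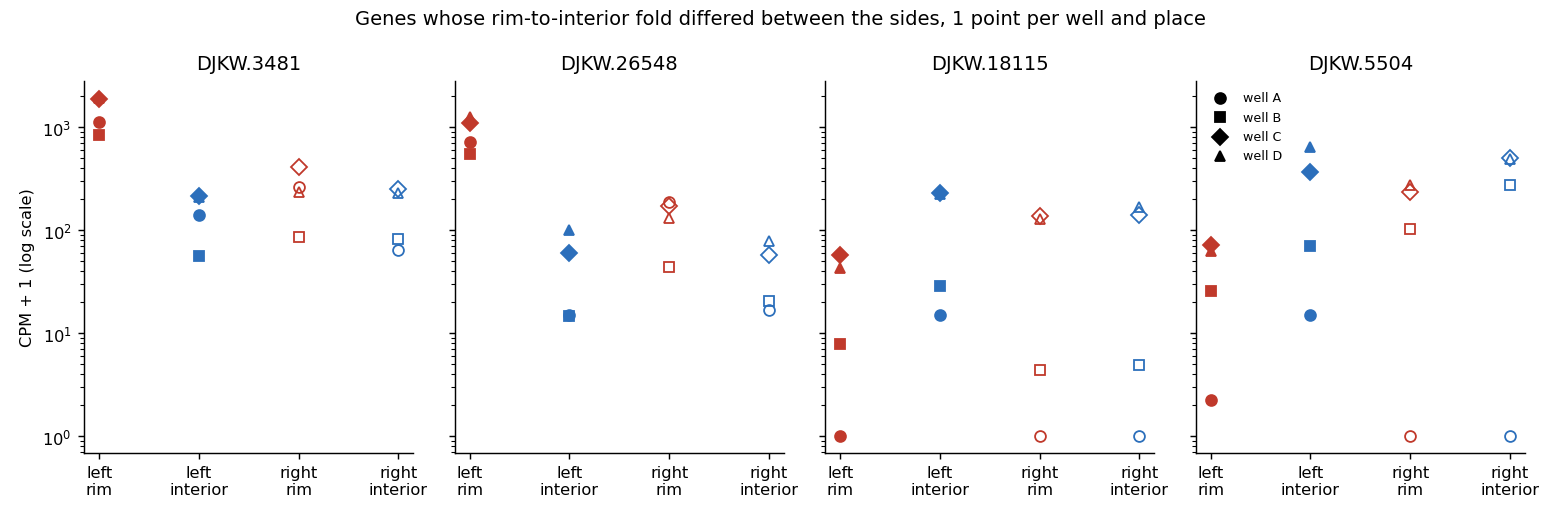
Levels of the 4 genes named for the left minus right difference (CPM + 1, log scale, y axis) at the left rim, left interior, right rim and right interior (x axis), 1 symbol per well, filled on the left side and open on the right. For DJKW.3481 and DJKW.26548 every left rim symbol lies above all symbols of the other 3 places. DJKW.18115 and DJKW.5504 are at 13.95 CPM or less in well A in all 4 places.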

How the data were processed

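Per the file headers, the deposited matrices hold raw counts of UMIs per feature and spot from Space Ranger 2.0.1, with array positions (a unitless value classed as other) beside them. Seurat is named too, per the submitters' processing notes, for no stated step. Genome build: not given in the sources used here. Members, comparisons and gene lists were chosen with earlier results of these data known. Counts were summed per well, side and zone and tested in R 4.3.3 with the quasi-likelihood F-test of edgeR 4.0.16 after filterByExpr and TMM, and genes were called where the Benjamini-Hochberg adjusted p was under 0.05. Standard errors are the log2 fold over the square root of F. Rim and interior come from the same wells, so wells pair them by design. The rim sums also take in sections without a left interior spot, in wells A and B. CPM use TMM factors of the 8 left sums, or of all 16 sums where the sides are compared, and plain CPM use totals alone. Single-well log2 ratios add 1 CPM. Named identifiers are the 2 of largest fold per direction among called genes of at least 50 CPM with 1 direction in every well. The scripts were tested on simulated data. Alternatives used DESeq2 1.42.0, limma 3.58.1, other filters, scalings and zone rules. A test between interior layers was planned for wells with at least 5 spots in both and not made, since only well C qualified. No genome sequence was used.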

Additional observations from a re-analysis of the deposited data

Results flagged for a closer look

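In 3 of 17 sets of 4 well values that were checked, 1 well lay far from the other 3. Chance alone marks about 1 in 20 independent sets, or 0.85 of 17. The 17 sets share wells and genes, so 3 cannot be weighed against 0.85. In all 3 sets the far well was well A, which has 6 left interior spots. For DJKW.24046 the log2 ratio of left rim over left interior, with 1 CPM added, was -5.75 in well A and between -2.88 and -2.39 in the other wells, and the well A value rests on 1 UMI at the rim and 8 inside. For DJKW.18115 the left minus right log2 difference was -3.90 in well A and between -2.01 and -1.73 in the others, on 0 UMIs at the left rim and 1 in the left interior of well A. The genes higher at the left rim supplied 10.65% of left interior UMIs in well A, against 3.51% to 3.78% in the other wells. The part of low depth in these values was not tested.

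Rim-to-interior folds that differed between the left and right sides by edgeR's test of the difference were found for the 4 identifiers named above. The left minus right differences were 2.65 for DJKW.3481, 2.65 for DJKW.26548, -2.01 for DJKW.18115 and -1.60 for DJKW.5504 on the log2 scale. In the middle rows DJKW.3481 and DJKW.26548 had differences of 0.28 and -0.02, and neither was called. There DJKW.18115 was still called, at -1.635 (edgeR adjusted p = 0.0313), and DJKW.5504 was not, at -1.371 (edgeR adjusted p = 0.0989).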

How the results depend on the processing

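Genes higher at the left rim and in the left interior numbered 1004 and 869, and 467 and 490 with DESeq2, 1390 and 537 with library totals, 593 and 591 with the stricter filter, 665 and 716 with thinned sums, and 492 and 188 with limma on means over spots. Without spots next to the mean column, which leaves interior spots in wells C and D only, they were 683 and 421. Wells C and D alone, with those spots kept, gave 1126 and 1021. Leaving those spots out thus changes how far the interior lies from the mean column as well as the wells used, and what lowered the counts was not tested. With no replicate block the counts were 262 and 69, with 6936 genes passing the filter against 8150, so this setting changes the pairing by well and the genes tested together. Leaving out 1 well gave 504 to 1209 and 487 to 1026 genes, the lowest without well D and the highest without well A. The other alternatives for each count stayed within 1.5 times, the ratios of UMIs and genes per spot moved by less than the spread between wells, and no gene named for this comparison changed sign in 76 refits.

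Genes with a more positive and a more negative left difference numbered 9 and 23, and 5 and 4 with the well as the only block, 0 and 0 with no replicate block, 4 and 7 with library totals, and 2 and 1 with DESeq2. Leaving out 1 well gave 3 to 15 and 0 to 65, the most without well A and, for the more negative ones, 0 without well D. Without wells A and B, an alternative added after seeing the data, they were 12 and 62. Among the 40 refits of the genes named for the difference, 1 reversed, DJKW.26548 at -0.022 in the middle rows, and it and 13 others missed the threshold. The cause of these changes was not tested. The few interior UMIs of wells A and B limit all left values inside the section.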
